A study of Mus musculus with 2 samples.

Results

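The 1000 cells with the highest contractile score in the AICAR + LIF culture at d8 were selected and analyzed, out of 9627 cells of d8 and 17720 cells of the series. They were chosen by a score, the mean over Actc1, Acta2, Tagln, Cnn1, Myl9, Csrp2, Itga7 and Aif1l of the natural log of 1 plus the gene's reads per 10000 reads of the cell. The score went from 2.42 in the first cell to 0.956 in the last one taken, and the next cell, which was not taken, had 0.956 as well. Since these 8 genes chose the cells, their levels below are a description and support nothing. The cells were proposed as smooth muscle-like. The markers below bear that name out in part only, so they are called contractile-high d8 cells here.

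The series followed primed mouse epiblast stem cells while they were driven back toward the naive state of pluripotency. Populations of 5 labels, of strain 129/Ola by the labels, were tagged and pooled into 1 library: naive mESCs of the Rex1-GFP line, primed mEpiSCs of the Oct4GIP line (which carries a GFP reporter of Oct4), Oct4GIP cells after 8 days (d8) or 16 days (d16) in the AMPK activator AICAR with LIF, and the d16 cells after 10 passages in 2iL (d16+10p). The primed cells were plated with FGF2 and Activin A on mouse embryonic fibroblast feeders (MEFs) 1 day before AICAR and LIF were given. No tag set feeder cells apart from the stem cells. The tags were held by antibodies to the surface proteins CD9 and CD63. By the methods, each cell was assigned by how far its highest tag count stood above the next. The label of a cell thus rests on this tagging. Each population was 1 sample, so no difference below has a replicate check. Values carry exact 95% Poisson or Clopper-Pearson intervals where given, and these cover counting error only, since molecular identifiers are not described and the counts were taken as reads.

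Contractile genes code for actin filaments, for the myosin that pulls on them and for the proteins that anchor both to the membrane. Smooth muscle cells, myofibroblasts and many adherent cells under tension make the early set, of which smooth muscle actin (Acta2) and transgelin (Tagln) are the best known, while the smooth muscle myosin heavy chain Myh11 and its activator myocardin (Myocd) mark settled smooth muscle. Much of this set is switched on by serum response factor, which binds a sequence called the CArG box, and by TGF-beta signals.

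The contractile-high cells were deeper than the rest of d8. Their median depth was 20922 reads per cell, from 3184 to 88738, with a median of 4747 genes, and the other 8627 d8 cells had medians of 15002 reads and 4053 genes. Levels below are CPM, the reads of a gene per 1000000 reads summed over all cells of a group. The contractile-high cells sum to 23623483 reads and the other d8 cells to 156321491. A log2 ratio is that of CPM + 1 between 2 groups, and a gene is called over 2-fold where it is past 1 or -1. No cell barcode occurred under more than 1 tag.

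Acta2, which codes for smooth muscle actin, was at 3062 CPM in the contractile-high cells and at 209 CPM in the other d8 cells. Tagln, an actin-bundling protein, was at 1590 and 181 CPM. Myl9, a regulatory light chain of myosin, was at 659 and 66.3 CPM. These 3 genes gave most of the reads of the score. Cnn1 (calponin, which binds actin and myosin) was at 255 and 37.8 CPM, Csrp2 (a LIM protein of smooth muscle) at 258 and 65.7 CPM, and Aif1l (an actin-bundling protein) at 134 and 24.2 CPM. Actc1, the cardiac actin, was at 139 and 9.08 CPM, and Itga7, a laminin receptor of muscle, gave the fewest reads, at 61.3 and 13.1 CPM. The plot of score gene levels gives the same genes in the groups described below.

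**Figure D1:**
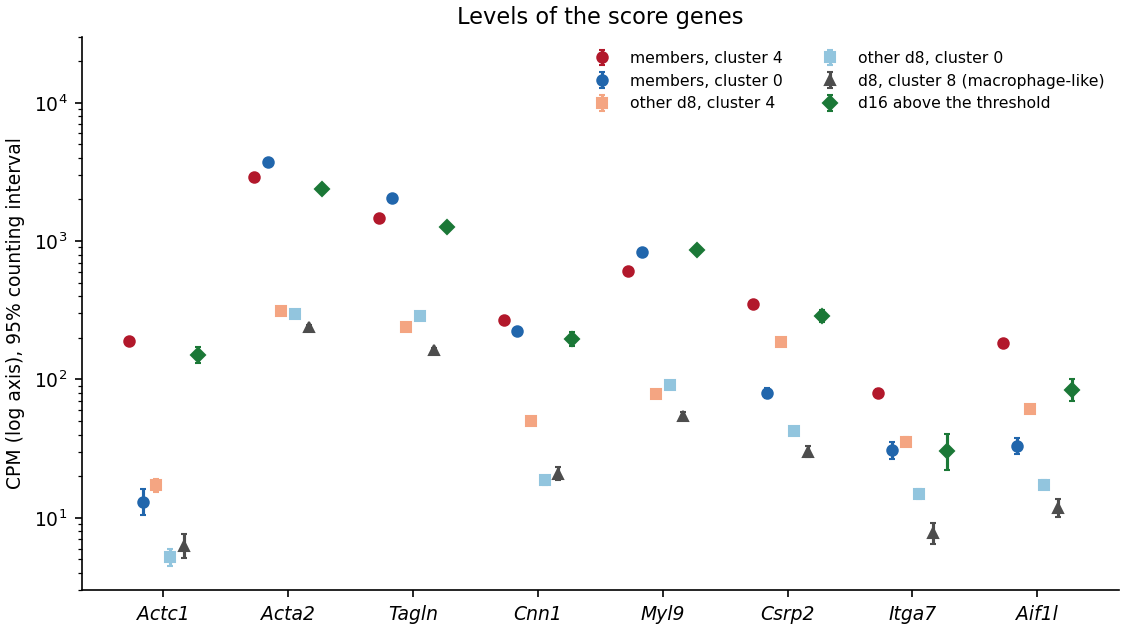
Levels of the 8 score genes in CPM (log axis) in 6 groups of cells, with 95% counting intervals. Contractile-high cells ("members") of clusters 4 and 0 lay close for Acta2, Tagln, Cnn1 and Myl9, while Actc1 was at 191 CPM in cluster 4 and 13.0 CPM in cluster 0.

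The contractile-high cells did not all read all 8 genes. A median of 6 of the 8 had at least 1 read in a cell, the lowest number was 3, and 105 of the 1000 cells had reads of all 8. In the other d8 cells the median was 3, and 23 cells had all 8. Acta2 had a read in 99.3% of contractile-high cells and in 72.8% of the other d8 cells, while Actc1 had one in 34.9% and 9.28%. To compare shares at 1 depth, each cell was thinned to 5000 reads, which left out 74 contractile-high and 681 other d8 cells with fewer. Macrophage-like d8 cells (cluster 8, below), a cell type that should lack these genes, served as the background. After thinning, Acta2 had a read in 97.2% of contractile-high cells (900 of 926), 45.7% of the other d8 cells and 44.6% of the macrophage-like cells. So the share over all other d8 cells was close to the background and is not by itself read as expression. In the other d8 cells of clusters 4 and 0 (below), Acta2 had a read in 58.0% and 54.0%, above the background. The share over all other d8 cells thus does not show that they lacked Acta2. Actc1 had a read in 21.4% of contractile-high cells, 3.75% of the other d8 cells and 1.76% of the macrophage-like cells (13 of 740) after thinning.

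Clustering of all 17720 cells placed the contractile-high cells mostly in 2 clusters. Cluster 4 held 586 of them (58.6%, 55.5 to 61.7%) and cluster 0 held 327 (32.7%, 29.8 to 35.7%). The 10 leading genes of cluster 4 were the score genes with Ly6c1, a surface protein, and Eya4, a transcription co-activator, so its share follows in part from the score and is a description. Cluster 0 was fibroblast-like and was led by Olr1, Lox, Ccl2, Tfpi2 and Ccl7, genes of matrix and of chemokines. Of the 87 others, 48 lay in cluster 1, led by the keratins Krt18 and Krt8 and by Cldn6, and 12 in the macrophage-like cluster 8. Conversely, 38.8% (36.3 to 41.3%) of the d8 cells in cluster 4 and 15.1% (13.6 to 16.7%) of those in cluster 0 were contractile-high. At a coarser resolution of 0.4, clusters 4 and 1 fell into 1 cluster, with 63.4% of the contractile-high cells, and the 327 cells of cluster 0 stayed apart.

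The 2 clusters took different ranges of the score. Cluster 4 gave 76.8% of the 250 cells of highest score, 61.2% of the next 250, 51.6% of the third and 44.8% of the last 250 cells taken. Cluster 0 gave 22.8%, 33.6%, 35.6% and 38.8% of the same cells. The mix of clusters thus depended on where the score was cut. Just inside the threshold, the last 50 cells taken had a median score of 0.972, with 50% in cluster 4, Acta2 at 1212 CPM and Acta1 at 134 CPM. Just outside it, the next 50 cells had a median score of 0.947, with 34% in cluster 4, Acta2 at 1335 CPM and Acta1 at 215 CPM. No gap in these values set the contractile-high cells apart at the threshold. Genes the score did not use followed the same order, with Tpm2 at 680, 558, 464 and 367 CPM in the 4 steps of the contractile-high cells and at 331, 247, 141 and 85.7 CPM in the 4 steps of the other d8 cells.

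**Figure D2:**
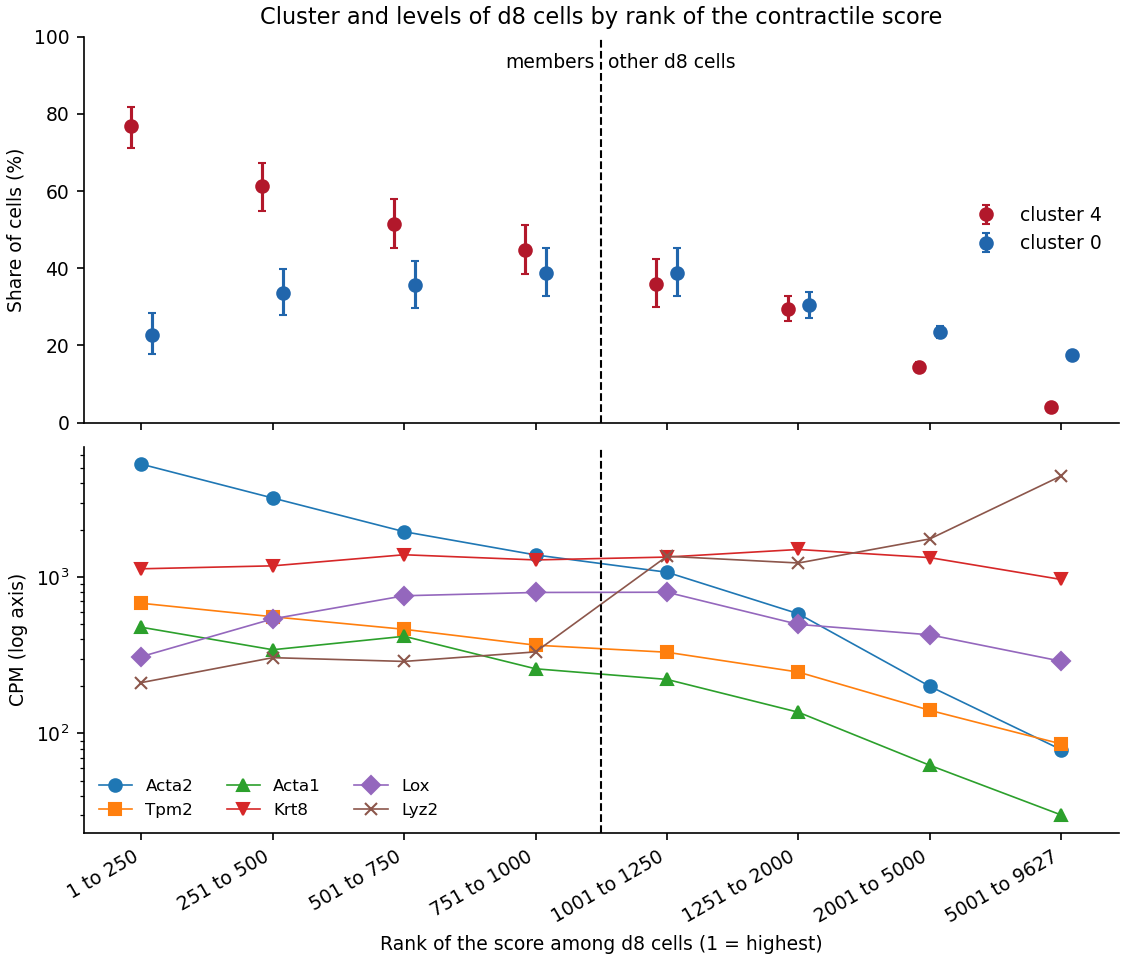
Top, the share of d8 cells in clusters 4 and 0 by rank of the score, with 95% Clopper-Pearson intervals; bottom, the CPM (log axis) of 6 genes in the same ranks. Left of the dashed line are the 1000 contractile-high cells, where cluster 4 went from 76.8% to 44.8%, Acta2 from 5279 to 1386 CPM and Lox from 310 to 798 CPM.

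Markers of settled muscle were at or near the lowest levels read. Myh11, the smooth muscle myosin heavy chain, was at 3.43 CPM (2.72 to 4.26) in the contractile-high cells and 0.653 CPM in the other d8 cells, and after thinning it had a read in 1.5% of contractile-high cells (14 of 926) against 0.4% of macrophage-like ones. Myocd was at 0.762 CPM (0.452 to 1.2) and 1.04 CPM, so these 18 reads showed no higher level. The reads of Myh11 came mainly from cluster 0, the fibroblast-like one, where the contractile-high cells had 8.94 CPM (6.8 to 11.5) and the other d8 cells 0.597 CPM, while those of cluster 4 had 0.396 CPM (6 reads). Of the other smooth muscle genes, Actg2 (enteric smooth muscle actin) was at 35.1 and 2.41 CPM, Lmod1 (an actin nucleator) at 30.1 and 4.35 CPM, and Mylk (myosin light chain kinase) at 21.5 and 8.46 CPM. These genes were higher in the contractile-high cells but low beside Acta2 in the number of reads they gave.

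Of the marker lists of other muscle and wall cells, few genes had reads to speak of. Among 20 cardiac genes, none had 50 CPM over all d8 cells. The cardiac troponin Tnnt2 was at 14.7 and 9.35 CPM, the atrial light chain Myl7 at 0.762 and 0.339 CPM, the regulator Nkx2-5 at 0.254 CPM in the contractile-high cells (6 reads), and phospholamban (Pln) had no read in them, which allows up to 0.127 CPM (3 reads). Of the skeletal genes, the fusion factor Mymk had no read either, and the regulator Myog was at 0.466 CPM (11 reads). Pericyte genes were not raised together, with the growth factor receptor Pdgfrb at 14.6 and 12.5 CPM, Rgs5 at 1.69 and 7.20 CPM, and Mcam, an adhesion protein, at 110 and 58.4 CPM. Each of these lists also held a gene that was higher, Ankrd1 of the cardiac and Acta1 of the skeletal list, and both are among the 25 highest described next. The cells thus held early contractile genes with Acta1 and Ankrd1, and few or no reads of Myh11, Myocd, Myl7, Nkx2-5, Pln, Myog and Mymk.

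Genes outside the score were then compared between contractile-high and other d8 cells. A gene entered where 1 of the groups had 50 CPM or more. Of 3724 such genes, 80 were over 2-fold higher in the contractile-high cells, which is 2.15%, and 70 were over 2-fold lower, which is 1.88%. Another scaling of the libraries (TMM) moved the log2 ratios by 0.15 and gave 122 higher and 51 lower, so the share of higher genes among those called went from 53.3% to 70.5%. The median log2 ratio of all genes was -0.06. A gene that reached 50 CPM in the contractile-high cells alone had to be higher in them. Among the 3503 genes with 50 CPM over all d8 cells, to which this does not apply, 61 (1.74%) were over 2-fold higher and 62 (1.77%) over 2-fold lower.

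The highest ratio was that of Acta1, the skeletal actin, at 379 CPM (371 to 387) against 59.4 CPM, a log2 ratio of 2.65. Gm48529 followed at 2.64, but it is an antisense gene inside Tagln (chr9:45930112-45933738 of GRCm38), and with no strand given for the counting its reads cannot be told apart from those of Tagln. Fhl1, a LIM protein of muscle, was at 145 and 23.7 CPM (2.57). Also among the highest were proteins that bind actin or its anchors, which were Nexn (2.07), Tpm2 (tropomyosin, 2.00), Csrp1 (1.78) and Cnn2 (a calponin, 1.72). Ankrd1, a nuclear protein of stretched muscle, was at 99.1 and 24.7 CPM (1.96).

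Several others of the 25 highest code for secreted proteins, a grouping made after their ranks were seen. Ccn2, a matricellular protein, was at 361 and 83.1 CPM (2.1). Loxl2, which crosslinks collagen, was at 573 and 168 CPM (1.77). Col8a1 (1.60) and Col1a1 (1.52) are collagens, Timp3 (1.49) is an inhibitor of metalloproteinases, and Prss23 (1.53) is a secreted protease. Cell-matrix contacts were represented by the alpha-actinin Actn1 (1.49), by vinculin (Vcl, 1.45) and by the fibronectin receptor Itga5 (1.44). Tpm1, a tropomyosin with more reads than any other of the 25, was at 4039 and 1506 CPM (1.42). Htr1b, a serotonin receptor, stood out for the opposite reason, since its 61.7 CPM came mainly from cluster 0, where contractile-high cells had 195 CPM against 9.51 CPM in cluster 4.

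**Figure D3:**
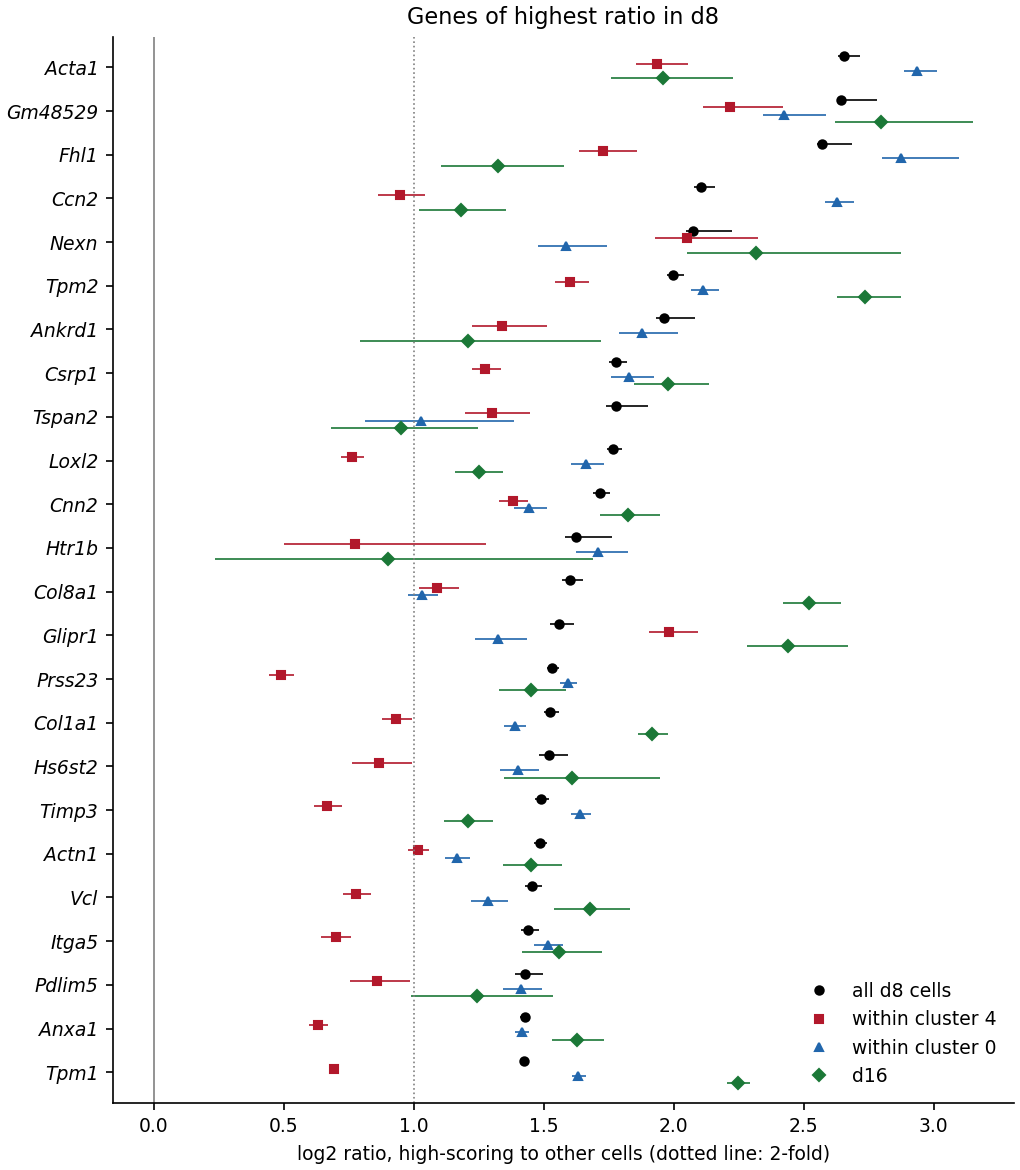
The log2 ratios of genes among the 25 of highest ratio in d8, with 95% counting intervals of the read ratio (without the added 1 CPM), among all d8 cells, within cluster 4, within cluster 0, and between d16 cells above and below the same score threshold. All genes plotted lay above 0 in the 4 comparisons, and the values within cluster 4 were the lowest of the 4 for most genes, from 0.49 for Prss23 to 2.22 for Gm48529.

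Promoter windows were searched for the CArG box because many genes of this set are known targets of serum response factor. RefSeq windows (GRCm38.p6, 250 bases before to 50 after the start) were in the table used for 23 of the 33 genes, that is, of the score genes and the 25 highest. Among those not searched were Tagln, Csrp2, Itga7, Gm48529, Ccn2, Nexn, Loxl2, Glipr1 and Col1a1. Of those searched, 6 held a box, Actc1 and Myl9 among the score genes and Acta1, Fhl1, Cnn2 and Vcl among the 25. Of all 32851 windows, 1.63% held one, and of all 27025 gene symbols, 1.81% had one. The pattern is its own reverse complement, so both strands were covered, and no other motif was searched. The boxes are given with the bases around them, on the strand of the gene, with the box in capitals. A match is a description and not a binding site, and a window without one says only that these letters are not in it.
Actc1, chr2:114052878-114052957 (- strand): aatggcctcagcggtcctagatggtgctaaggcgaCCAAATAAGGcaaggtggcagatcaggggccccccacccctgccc
Myl9, chr2:156775268-156775347 (+ strand): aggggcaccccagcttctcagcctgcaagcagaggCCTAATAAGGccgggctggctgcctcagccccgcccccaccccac
Acta1, chr8:123894804-123894883 (- strand): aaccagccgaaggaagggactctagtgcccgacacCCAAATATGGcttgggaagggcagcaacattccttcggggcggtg
Fhl1, chrX:56779546-56779625 (+ strand): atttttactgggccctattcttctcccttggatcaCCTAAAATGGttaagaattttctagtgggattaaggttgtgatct
Cnn2, chr10:79988509-79988588 (+ strand): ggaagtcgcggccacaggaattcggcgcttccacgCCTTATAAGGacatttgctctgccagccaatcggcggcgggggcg
Vcl, chr14:20929148-20929215 (+ strand): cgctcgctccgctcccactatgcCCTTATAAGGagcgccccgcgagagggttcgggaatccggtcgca
Counted to the RefSeq transcript start that its window was built on, the box began 47 bases before it in Actc1, 56 in Cnn2, 73 in Acta1, 102 in Fhl1, 161 in Myl9 and 227 in Vcl. For Actc1 and Fhl1 this start lies inside the gene as GENCODE M21 draws it, so their boxes do too. Cnn2 and Vcl had the same 10 letters, and the other 4 boxes differed from these and from each other.

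Since the 2 clusters differ in many genes, the contractile-high cells were also set against the other d8 cells of their own cluster. Within cluster 4, 586 contractile-high cells were compared with 925 others, and 21 of 3644 genes (0.576%) were over 2-fold higher and 0 (0%) over 2-fold lower. Within cluster 0, with 327 and 1840 cells, 72 of 3546 genes (2.03%) were over 2-fold higher and 50 (1.41%) lower. Among genes with 50 CPM over all d8 cells, 0.285% were over 2-fold higher within cluster 4 and 1.08% within cluster 0. Of the 25 highest genes, 13 were over 2-fold within cluster 4 and all 25 within cluster 0, and all 25 lay above 0 in both. The 25 were chosen by their ratio in these same cells, so these counts are a description and no support. Gm48529, whose reads cannot be told apart from those of the score gene Tagln, is 1 of the 25. Acta1 was over 2-fold within cluster 4 (1.93) and within cluster 0 (2.94), and so were Fhl1 (1.73 and 2.88), Nexn (2.05 and 1.58) and Tpm2 (1.60 and 2.11). Of the 25, Nexn, Glipr1 (1.98 against 1.32), the tetraspanin Tspan2 (1.30 against 1.03) and Col8a1 (1.09 against 1.03) had the larger ratio in cluster 4, and the other genes had it in cluster 0.

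The contractile-high cells of both clusters were chosen by the same score, so genes shared between them are a description. Of 2998 genes tested in both clusters, 16 were over 2-fold higher in cluster 4 and 41 in cluster 0. In all, 13 genes were over 2-fold higher in both clusters, which is 81.3% of the 16 and 31.7% of the 41. Among them were Acta1, Actn1, Ankrd1, Cnn2, Col8a1, Csrp1, Fhl1, Glipr1, Gm48529, Nexn, Tgm2 and Tpm2, many of which code for actin or for proteins that bind it. Other genes led within 1 cluster. In cluster 4 these were Prnd (1.68), a prion-like protein, the actinin partner Pdlim3 (1.54), the metalloproteinase Adam19 (1.28) and the integrin Itgb3 (1.11). In cluster 0 they were Tnfsf15 (3.01), a cytokine, desmin (Des, 2.94), the muscle intermediate filament, at 66.0 against 7.71 CPM, the lipase Mgll (2.12), the microfibril protein Mfap5 (2.02) and Tgfb2 (1.69). Desmin was at 3.90 CPM in the contractile-high cells of cluster 4, so its reads came mainly from cluster 0, and from few cells there, since 13 of 273 (4.76%) had a read after thinning.

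Among the 50 genes lower in the contractile-high cells of cluster 0 were 3 matrix metalloproteinases with large ratios. Mmp13, a collagenase, was at 13.8 and 136 CPM (-3.21), Mmp3, a stromelysin, at 49.2 and 305 CPM (-2.61), and Mmp10 at 304 and 1280 CPM (-2.07). Rgs2, a regulator of G-protein signals, had -2.08 and Itga2, a collagen receptor, -2.07. Within cluster 4 the lowest ratio was that of Atp10d, a lipid flippase, at -0.96.

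The gene lists show which groups of genes went with the contractile score. Counts here are over genes with 50 CPM over all d8 cells, and the share of all such genes over 2-fold higher, 1.74%, is the background. Of the 30 contractile genes outside the score, 14 had this level, all 14 were higher in the contractile-high cells and 11 were over 2-fold, with a median log2 ratio of 1.34, against -0.06 for all genes. The list was compiled for its tie to these proteins and with the score genes known, so its direction is not independent of them. Of the same 14 genes, 4 were over 2-fold within cluster 4 (median 0.79) and 8 within cluster 0 (median 1.12).

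The regulators of muscle genes were not higher along with the contractile genes. Of 23 in the table, 8 had the level, none was over 2-fold either way, and their median was -0.12. Tead1, a factor of the Hippo pathway, was at 149 and 106 CPM, its partner Yap1 at 98.4 and 99.7 CPM, and Klf4, a repressor of contractile genes, at 212 and 249 CPM. The serum response factor Srf was at 18.4 and 16.5 CPM and its co-activator Mrtfa at 21.9 and 17.2 CPM, both under the level. RNA counts do not show the activity of these factors. Of 28 calcium handling genes, 5 had the level and none was over 2-fold, with the calcium pump Atp2a2 at 193 and 172 CPM.

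Part of the TGF-beta ligands and of their known targets were over 2-fold higher. Of 3 ligands with the level, Tgfb2 was at 272 and 110 CPM (1.30), the activin subunit Inhba at 899.6 and 419 CPM (1.10) and Inhbb at 117 and 71.1 CPM (0.71). Of 9 TGF-beta target genes, 5 were over 2-fold and 8 above 0, with a median of 1.04, Ccn2 (2.1) and Col1a1 (1.52) among them. Within cluster 4, 0 of the 3 ligands and 1 of the 9 targets were over 2-fold (target median 0.42), and within cluster 0, 2 and 4 of them (0.59). In fibrillar matrix, 7 of 17 genes were over 2-fold and 13 above 0 (median 0.74), among them Fn1 (fibronectin) at 2228 and 1080 CPM, Thbs1 (thrombospondin) at 1502 and 668 CPM and Col1a2 at 741 and 294 CPM. Within clusters 4 and 0, 1 and 6 of these 17 were over 2-fold higher and 0 and 2 over 2-fold lower. Not all matrix was higher, with Dcn (decorin) at 134 and 216 CPM and Postn (periostin) at 376 and 417 CPM. In integrins and basement membrane, 3 of 13 were over 2-fold (median 0.23), led by Itga5, with Sparc at 4338 and 1847 CPM. Of 8 BMP and Id genes none was over 2-fold (median -0.09), and Id2 was at 119 and 230 CPM.

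**Figure D4:**
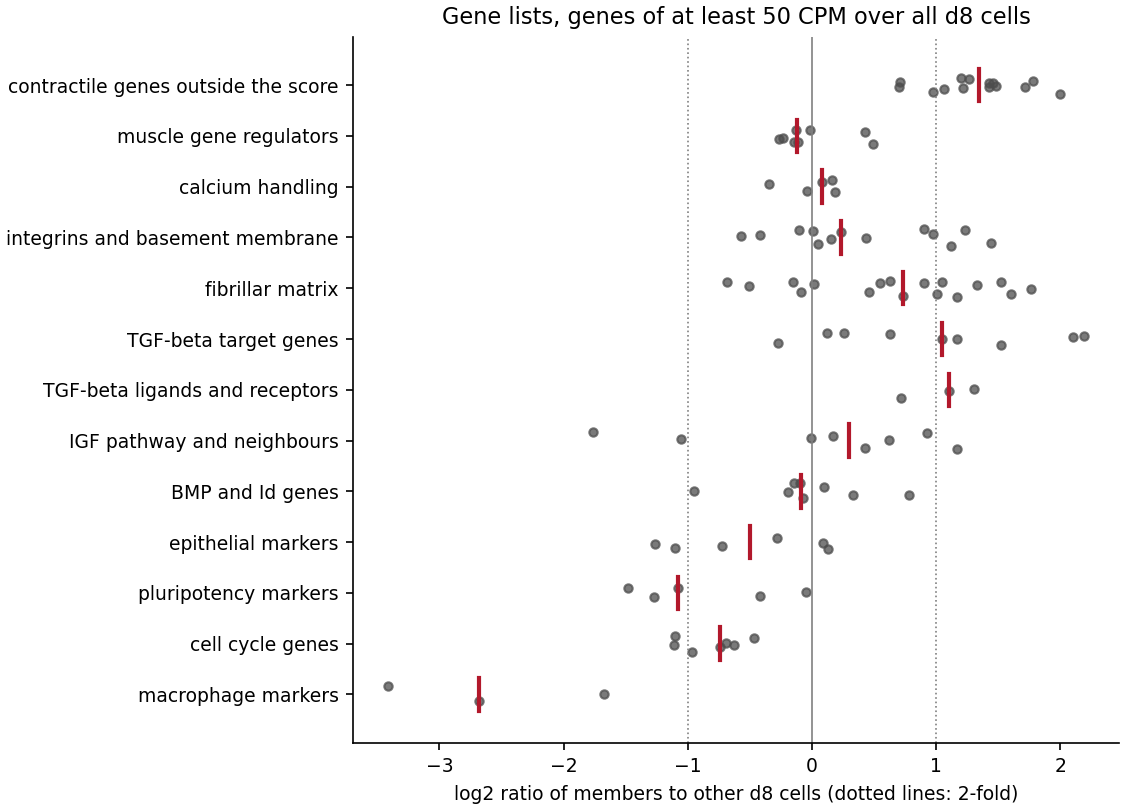
Log2 ratios of contractile-high to other d8 cells for the genes of 13 lists with at least 50 CPM over all d8 cells (points), with the median of each list (red bar). Contractile genes outside the score lay from 0.70 to 2.00, regulators of muscle genes around 0, and pluripotency, cell cycle and macrophage genes below 0.

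The contractile-high cells of clusters 4 and 0 were then compared with each other. Of 3830 genes, 275 (7.18%) were over 2-fold higher in cluster 4 and 370 (9.66%) over 2-fold higher in cluster 0. The score genes took both paths. Acta2 was at 2921 CPM in cluster 4 and 3746 CPM in cluster 0, and Tagln at 1460 and 2041 CPM, while Actc1 was at 191 CPM (184 to 198) and 13.0 CPM (10.4 to 16.1) and Aif1l at 185 and 33.2 CPM. After thinning, Actc1 had a read in 27.4% (23.8 to 31.3%) of the cells of cluster 4 (156 of 569) and in 6.23% (3.7 to 9.8%) of those of cluster 0 (17 of 273).

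Contractile-high cells of cluster 4 had more reads of simple epithelial keratins than those of cluster 0. Krt18 was at 1631 CPM in cluster 4 and 190 CPM in cluster 0, and Krt8 at 1465 and 184 CPM. After thinning, Krt8 had a read in 85.8% and 49.5% of these cells and in 54.1% of the macrophage-like cells, so the share of cluster 0 was not above the background. It had a read in 85.5% of the other d8 cells of cluster 4 and in 77.0% of all other d8 cells. Krt8 was thus not particular to the contractile-high cells. Also higher in cluster 4 were Wfdc2, a secreted protease inhibitor of epithelia (3.35), the neurofilament Nefl (3.24), the intermediate filament nestin (Nes, 2.71) at 376 and 56.7 CPM, and the signal Wnt4 (2.83). Among contractile genes, Tpm1 was at 4787 and 2512 CPM and thus higher in cluster 4, while Acta1 was at 219 and 687 CPM.

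Cells of cluster 0 carried the matrix and inflammatory genes of fibroblasts. Lox, a collagen crosslinker, was at 62.2 CPM in cluster 4 and 1921 CPM in cluster 0, the surface protein Thy1 at 39.8 and 774 CPM, the mesenchymal factor Prrx1 at 41.6 and 553 CPM, and the chemokine Ccl2 at 36.9 and 452 CPM. After thinning, Lox had a read in 24.8% of the cells of cluster 4 and 93.4% of those of cluster 0, with 38.8% in the macrophage-like cells, so the share of cluster 4 was not above the background. The prostaglandin enzyme Ptgs2 was at 66.0 and 1497 CPM, Inhba at 187 and 2738 CPM and the proteoglycan Bgn at 70.5 and 1554 CPM. Ccn2, at 177 and 839 CPM, also had most of its level from cluster 0. These 327 contractile-high cells thus lay in a cluster with Lox and Ccl2 among its leading genes. Overlap with a separately chosen set of fibroblast-like cells was not measured.

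Genes of the sex chromosomes differed between the clusters too. Ddx3y, on the Y chromosome, was at 5.02 CPM in the contractile-high cells of cluster 4 and 71.8 CPM in those of cluster 0, and had a read after thinning in 1.76% and 20.9% of them. In the other d8 cells of the clusters the shares were 2.6% and 23.8%. Eif2s3y, also on the Y, was at 1.98 and 24.8 CPM, and Xist, the RNA of the inactive X, at 168 and 95.4 CPM. Over whole populations, Ddx3y was at 7.21 CPM in primed, 7.25 CPM in d16 and 58.2 CPM in naive cells, and after thinning 13.8% of the macrophage-like d8 cells had a read. Both the primed and the naive line are listed as XX in the methods. Whether feeder fibroblasts are among the cells of cluster 0 was not tested, and no tag tells them apart.

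**Figure D5:**
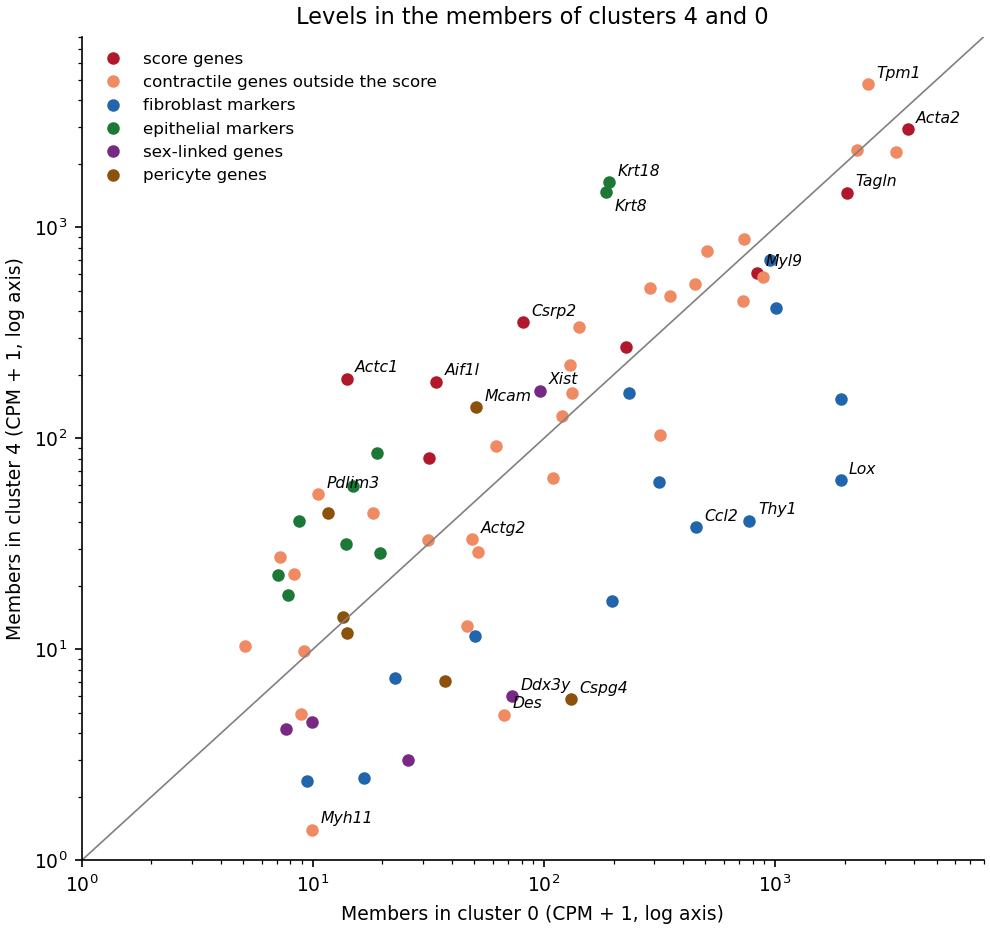
Levels (CPM + 1, log axes) of genes of 6 lists in the contractile-high cells of cluster 0 (horizontal) and cluster 4 (vertical), with equal levels on the line. Acta2 and Tagln lay near the line, keratins and Actc1 above it, and Lox, Thy1, Ccl2 and Ddx3y below it.

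The muscle actins were in different proportions in the 2 clusters. Transcripts of Acta1, Acta2, Actc1 and Actg2 share no stretch of 50 bases in the annotation, so reads of that length or longer can be placed if they match exactly. For 100 reads of Acta2, the contractile-high cells of cluster 4 had 6.52 reads of Actc1, 7.51 of Acta1 and 1.11 of Actg2. Those of cluster 0 had 0.348 of Actc1, 18.3 of Acta1 and 1.28 of Actg2. Between these 2 groups, the proportion of cardiac actin was thus larger in cluster 4 and that of skeletal actin in cluster 0. The ratio of Actg2 to Acta2 was nearly the same. Neither larger proportion was particular to its group. For 100 reads of Acta2, primed cells had 6.55 of Actc1 and the other d8 cells 28.5 of Acta1. In the 48 contractile-high cells of the keratin cluster 1, 12.8 reads of Actc1 and 59.7 of Acta1 were found for 100 of Acta2. The common actins Actb and Actg1 were higher in the contractile-high cells by 0.62 and 0.83 on the log2 scale. Read numbers depend on transcript length, so they give no ratio of molecules.

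The genes of lowest ratio were mostly those of macrophages. Lyz2, the lysozyme of macrophages, was at 281 CPM in the contractile-high cells and 3008 CPM in the other d8 cells (-3.41), and at 27392 CPM in the macrophage-like cluster 8, which had 822 d8 cells. Lyz1, its near-identical paralog, had the same ratio, and reads may be split between them. Ctss, a lysosomal protease (-2.70), Ccl6, a chemokine (-2.90), and Gpnmb, a lysosomal glycoprotein (-2.61), followed. Of the 20 lowest genes, 18 had over 5 times the level of the other d8 cells in cluster 8, and so did 35 of all 70 lower genes. The share of all tested genes with such a level in cluster 8 is not given, so these counts are a description. The sum of 10 macrophage markers was 391 CPM in the contractile-high cells and 3474 CPM in the others. Without the cells of cluster 8, 33 of the 70 remained over 2-fold lower, and 65 of the 80 higher genes remained over 2-fold higher. Lyz2 had a read in 53.5% of contractile-high and 57.4% of other d8 cells after thinning, and within cluster 4 its ratio was -0.08.

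Some genes of stem cells and of dividing cells were over 2-fold lower, beside 1.77% of all genes with the level. Lefty1, an inhibitor of Nodal made by primed cells, was at 81.3 and 358 CPM (-2.12), and Tdgf1, a Nodal co-receptor, at 51.8 and 147 CPM (-1.48). Of 5 pluripotency markers with the level, 3 were over 2-fold lower, with a median of -1.08 and Pou5f1 (Oct4) at 28.4 and 61.1 CPM. Of 7 cell cycle genes, all had a ratio below 0 and 2 were over 2-fold lower (median -0.74), with Top2a, a topoisomerase of dividing cells, at 65.1 and 141 CPM. Within the clusters these differences were small, since no gene of either list was over 2-fold lower in cluster 4 or 0, and the cell cycle median was -0.15 and 0.01. The cell cycle inhibitor Cdkn1a was at 1204 and 1096 CPM. Epithelial markers were split, since Epcam (-1.26) and Cdh1, at 32.2 and 70.4 CPM, were lower while the ratio of Krt8 was 0.09.

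Cells with the same score were sought under the other tags. At the d8 threshold, the share was 10.4% in d8 (9.78 to 11%), where the rule fixed it, 3.34% in primed cells (61 of 1826, 2.56 to 4.27%), 1.95% in d16 (84 of 4315, 1.56 to 2.40%), 1.12% in naive cells (9 of 801, 0.515 to 2.12%) and 0.608% in d16+10p (7 of 1151, 0.245 to 1.25%). These intervals cover counting error only, and differences between populations were not tested, as each was 1 sample. Of the 61 cells with the primed tag, 27 lay in cluster 4 and 16 in cluster 0. Cluster 12, where primed was the most frequent tag, held 0 of them. By the methods, 500 primed cells were loaded, while 1826 cells carried their tag. The paper considered Oct4-negative cells of this population to be MEF feeders. The primed share is thus of cells with the tag and not of primed stem cells. Of the 84 d16 cells, 31 lay in cluster 6, 19 in cluster 3, 17 in cluster 4 and 6 in cluster 0, so most of them were outside the clusters of the contractile-high d8 cells. All shares are of tagged cells, and cells were loaded in unequal numbers. Depth differed too, with medians of 15474 reads per cell in d8, 11914 in primed, 10185 in d16, 19551 in naive and 21551 in d16+10p cells. The shares above were not brought to 1 depth. A share after thinning is given below for d16 only.

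The d16 cells above the threshold had many of the same genes higher. Against the other 4231 d16 cells, 165 of 3971 genes (4.16%) were over 2-fold higher and 169 (4.26%) lower, and among the genes with 50 CPM over all d8 cells 3.05% were over 2-fold higher. Of the 25 highest genes of d8, 23 were over 2-fold higher in d16 and all 25 were above 0, with a lowest ratio of 0.90 and a median of 1.63. The 14 contractile genes outside the score had a median of 1.56, with 13 over 2-fold. Tpm2 had 2.73 and Tpm1 2.25, both more than in d8.

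Actg2, Mylk, Myh11 and Myocd, low in d8, were at higher CPM in the 84 d16 cells. Actg2 was at 216 CPM (193 to 240.5) against 3.64 CPM in the other d16 cells, and at 35.1 CPM in the contractile-high d8 cells. Mylk was at 201 CPM against 13.0 CPM in the other d16 cells. Myh11 was at 24.8 CPM (17.5 to 34.2, 37 reads) and Myocd at 8.06 CPM (4.16 to 14.1, 12 reads), with 0.552 and 0.939 CPM in the other d16 cells. How many of the 84 cells held the reads of these 4 genes is not given, so whether a few cells held most of them is unknown. Lmod1, at 31.6 CPM, had about the level of d8, and Des was at 2.69 CPM. For 100 reads of Acta2 the d16 cells had 9.06 of Actg2, against 1.15 in d8. The leading genes of d16 outside the d8 set included the proteoglycans Aspn (4.02) and Ogn (3.64) and the growth factor Igf1 (2.77). The difference between d8 and d16 was not tested, as each was 1 sample.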

How the data were processed

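The authors deposited 1 table of raw read counts per gene and cell (33963 genes, 17720 cells, 307121033 reads in all) for 5 tagged populations in 1 pooled cDNA library, with 1 tag library beside it. Cells were caught on a BD Rhapsody system. The submitters' processing notes name cutadapt 2.10, Bowtie2 2.3.4.1, Seurat 2.3.4 and mm10. By the methods, reads were mapped to Ensembl transcripts, cells were kept by the knee of the read curve and tag doublets were removed before deposit. Molecular identifiers are not described, so counts were taken as reads. Each cell's population was read from the tag in its name.

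No cell was left out. Every cell had 826 or more genes, and mitochondrial reads made up 10.0% or less of each. Members were the 1000 d8 cells of highest score. The members and the lists (30, compiled by hand) were chosen with earlier results of these data known. Reads were summed by group and given as CPM. A gene was compared where 1 of the groups reached 50 CPM and both together 100 reads, without score and mitochondrial genes, and log2 ratios used a pseudocount of 1 CPM. Named were the score genes, the 25 highest and 20 lowest ratios, up to 4 genes of a list, defining markers and, chosen after their values were seen, leaders of the within-cluster, between-cluster and d16 comparisons. Clusters came from Seurat 5.3.0 in R 4.3.3 with 2000 variable genes, 56 components, 50 neighbours and resolution 0.8. Doublets were scored with Scrublet in scanpy 1.11.5, and leaving out the 5% highest scores was an alternative. TMM factors came from edgeR 4.0.16. Intervals are exact 95% Poisson or Clopper-Pearson intervals (scipy 1.17.1). No test between conditions was run, since each population is 1 sample. The scripts were tested on simulated data. Positions are of GENCODE M21 (GRCm38) and promoter windows of RefSeq. 1 gene among the 25 highest and 1 gene list are not reported here.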

Additional observations from a re-analysis of the deposited data

Results flagged for a closer look

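The insulin-like growth factor Igf1 and its binding protein Igfbp3 had opposite signs at d8 and d16. For Igf1 the log2 ratio of high-scoring to other cells was -1.76 at d8 (20.3 and 71.4 CPM) and 2.77 at d16 (327 and 46.9 CPM). The d8 cells of the macrophage-like cluster 8 had 552 CPM of Igf1, and within clusters 4 and 0 of d8 the ratios were 0.04 and 0.17. For Igfbp3 the ratio was -1.06 at d8 (40.5 and 85.3 CPM) and 1.66 at d16 (314 and 98.9 CPM). Within clusters 4 and 0 of d8, Igfbp3 was not over 2-fold lower. With 1 sample at each time, the difference was not tested.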

How the results depend on the processing

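The 80 higher and 70 lower genes became 122 and 51 with TMM scaling, and 148 and 263 at a level of 10 CPM. Within cluster 4, a comparison chosen after seeing the data, they became 21 and 0. Under the other alternatives the counts stayed within 1.5 times, at 60 to 102 and 47 to 99. The median log2 ratio of contractile genes outside the score, 1.42 over the 17 genes of the main rule, stayed positive throughout: 1.30 with a pseudocount of 10 CPM, 1.57 with TMM, 1.44 for means per cell, 1.34 after thinning, 1.40 and 1.29 for 500 and 2000 cells, 1.39 for cells with over 2000 and under 8000 genes, 1.29 at 10 CPM, 1.58 without the 1000 cells next in rank, 0.83 in cluster 4, 1.28 in cluster 0, 1.33 outside cluster 8 and 1.34 for 50 CPM over all d8 cells. With 1 gene left out of the score it was 1.40 (Actc1), 1.27 (Acta2), 1.32 (Tagln), 1.39 (Cnn1), 1.37 (Myl9), 1.38 (Csrp2) and 1.39 (Aif1l). The share in cluster 4, 58.6%, was 63.4% at resolution 0.4, where clusters 4 and 1 merged, 69.0% for 500 cells and 44.9% for 2000. The share of d16 cells, 1.95%, was 2.91% after thinning and 2.43% for cells with over 2000 and under 8000 genes, and the d16 median of contractile genes, 1.68 over 19 genes, was 1.53 with a pseudocount of 10 CPM.

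All 550 values of the 25 highest genes under 22 alternatives kept their sign. Of 440 values of the 20 lowest, 9 turned positive: within cluster 4 Lyz1 (0.035), Clec4n (0.20), Mpeg1 (0.20), Ctss (0.18), Fcgr3 (0.0035), Clec4d (0.0153), Atp6v0d2 (0.033) and Ms4a7 (0.0053), and outside cluster 8 Atp6v0d2 (0.0224). The cause was not tested, but both leave out most or all cells of cluster 8. Of the 1000 cells, 833 were chosen again after thinning, 892 to 967 with 1 gene left out of the score and all but 45 without the highest doublet scores. No paired analysis was possible because the populations share no replicate numbers. Without replicates, the spread between cultures is unknown, and reads per cell limit the share of cells with a read of low genes such as Actc1.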
